A study of Homo sapiens with 6 samples.

Results

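The 3 untreated cultures of SK-MES-1 were examined, which are 3 of the 6 RNA sequencing libraries of a study of exosomes, the small membrane vesicles that cells shed. They were chosen by their label, as the control cultures that received no exosomes. SK-MES-1 is an established human line that the labels call lung squamous carcinoma and wild type. The cells were seeded in plates, their medium was replaced on the following day, and RNA was taken after 72 h. The other group of the study, which received exosomes of fibroblasts from idiopathic pulmonary fibrosis at 20 µg/ml, is not described here, and no group is compared with another. Instead, the absolute level of each transcript in the line as it grew in culture is given, by lineage, receptor, matrix and metabolic role. Whether the 3 cultures were grown and handled apart is not stated, so the spread between them may be technical.

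Squamous cancers of the lung are known for the programme of the basal and stratified epithelium, in which the transcription factors TP63 and SOX2 maintain basal cells and the keratins KRT5, KRT14 and KRT6A fill the cytoskeleton. Glandular and simple epithelia use KRT8, KRT18, KRT19 and KRT7 in their place, and mesenchymal cells use vimentin. Growth factor receptors, integrins and matrix proteins decide how such cells read and attach to their surroundings.

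Levels are given in FPKM, the authors' fragments per kilobase of gene scaled by sequencing depth, because genes of different length are comparable only per length. Each mean is over n = 3 libraries, with its SD. A pair of genes is described as apart only where the ranges over the 3 libraries do not overlap. The median of all 15761 genes in the table was 4.94 FPKM, and 10633 genes (67.5%) reached 1 FPKM in every library. A level below 1 FPKM is described as low, and the counts of list members at 1 FPKM can be read against the 67.5% of all genes. With these totals, a level of 1 CPM (counts scaled by library total) is 11.3 to 12.9 reads. The RNA is that of whole cultures, in which fewer cells that express a gene and less RNA per cell cannot be told apart.

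The 3 libraries held 11346639 to 12924251 counts and 14294 to 14406 detected genes each. Library 3 stood apart. The chi-square per gene was 2.29 between libraries 1 and 2, 15.6 between 1 and 3 and 11.7 between 2 and 3. The coefficient of variation between cultures from edgeR was 8.74%, and 3.44% without library 3. Of 4531 genes with at least 50 CPM, 55 differed 1.5 times or more between the highest and the lowest library, and 54 of these were lowest in library 3. The 10 with the largest ratios included RPL41, FTH1, SERF2, RPS24, RPL32, PPDPF, PPP1R14B, RPL28 and RPL23A, several of which encode ribosomal proteins or ferritin. RPL41 stood at 252, 227 and 90.6 CPM in libraries 1 to 3. The median log2 ratio of library 3 to the mean of the other libraries went from -0.17 in the shortest genes (207 to 1653 bases) to 0.11 in the longest. Of 367 listed genes at 10 FPKM or more, the median coefficient of variation over the 3 libraries was 6.27%.

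The top of the transcriptome was mitochondrial, cytoskeletal and glycolytic. The 13 protein genes of mitochondrial DNA took 23.4 ± 3.03% of the FPKM total, at 25.7%, 24.5% and 20.0% in libraries 1 to 3, and 25.1% without library 3. Of the nuclear genes, the beta-actin gene ACTB was highest at 3654, 3694 and 3874 FPKM in libraries 1 to 3. VIM, which encodes the intermediate filament vimentin, came next at 2022, 2033 and 1979 FPKM. The 3 libraries lay close together for both. After them came the gamma-actin gene ACTG1 (1632 ± 98.1 FPKM), the elongation factor gene EEF2 (1461 ± 89.0), the ferritin light chain gene FTL (1354 ± 180.3), GAPDH (1225 ± 57.1), the ribosomal protein gene RPS2 (1092 ± 53.5) and the enolase gene ENO1 (1024 ± 53.4). The retrotransposon-derived gene PEG10 stood at 729 ± 48.3 FPKM and AKR1B1, which encodes aldose reductase, at 670.1 ± 18.2 FPKM. Of 16 housekeeping reference genes, 15 were in the table and TUBB was not listed. All 15 reached 1 FPKM in every library, with a median over the 15 gene means of 149 FPKM. The lowest was TBP (6.65 to 8.94 FPKM over the libraries) and the highest ACTB (mean 3741). In all, 20 genes exceeded 1000 FPKM and held 27.6% of the FPKM total, and 342 genes (2.17%) lay between 100 and 1000 FPKM.

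Markers of squamous and basal cells were mostly low, against the label of the line, whose identity was not checked here. Of 24 markers, 20 were in the table, 8 reached 1 FPKM in every library (9 in the mean), and the median of the 20 was 0.428 FPKM. KRT6C, the desmosomal cadherin DSG3, PKP1 and CALML3 were not listed in the table. TP63, the master factor of squamous cells (chr3:189631416-189897279, plus strand, GRCh38), had 0.157, 0.243 and 0.296 FPKM in libraries 1 to 3, from 13, 18 and 25 counts. SOX2, its partner in lung squamous cancer, had 1.88, 1.89 and 1.42 FPKM, all above 1 but below the median gene. KRT5 (chr12:52514575-52520687, minus strand) had 3, 0 and 2 counts, or 0.0514 ± 0.0473 FPKM, and KRT14 had 2, 1 and 0 counts, or 0.0492 ± 0.0474 FPKM. Both basal keratins, which pair into the filaments of basal cells, were thus at 3 reads or fewer in each library. KRT6A had 2 counts, KRT6B 2 and the desmosomal cadherin DSC3 3 over the 3 libraries together. The levels of TRIM29 (0.623 ± 0.130 FPKM) and SERPINB5 (1.07 ± 0.201 FPKM), both of which are used as squamous markers, lay near 1 FPKM. Another 3 keratins of basal or stressed epithelium were detectable. KRT15 stood at 3.50 ± 0.505 FPKM, KRT16 at 2.98 ± 0.261 and KRT17 at 2.10 ± 0.459, and the ranges of KRT16 overlapped with that of KRT15. The only members of the list above 10 FPKM were JAG1 (43.0 ± 0.838 FPKM), which encodes a Notch ligand, and PERP (33.3 ± 2.21 FPKM), which encodes a desmosomal protein under p53 control; neither is restricted to squamous cells.

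The end stages of squamous differentiation were lower still. Of 18 genes of the cornified envelope, 10 were in the table, 3 reached 1 FPKM and the median was 0.0843 FPKM. These 3 were KRT10 (4.93 ± 0.573 FPKM), FLG (2.79 ± 0.468 FPKM), which encodes filaggrin, and CNFN (1.78 ± 0.367 FPKM). Involucrin (IVL) and KRT4 had 1 count each over the 3 libraries, and DSG1 had no count, which allows up to 0.0161 FPKM at 3 counts over the 3 libraries. LOR, KRT1, TGM1 and 5 SPRR genes of the list were not listed in the table.

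**Figure D1:**
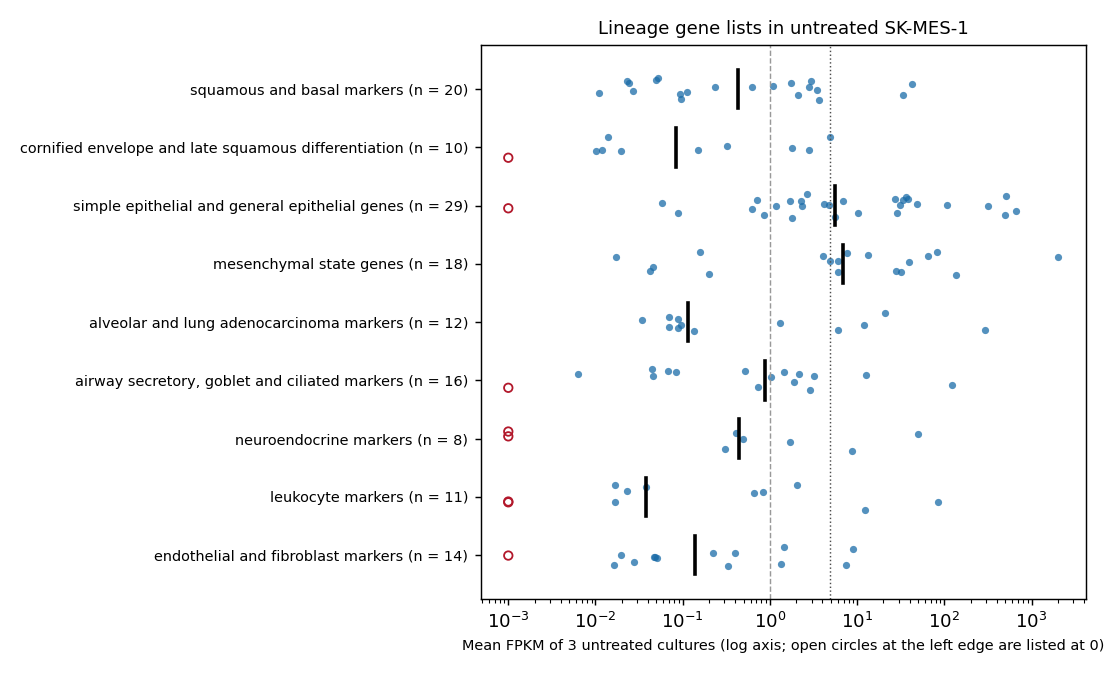
Mean FPKM of each listed member (points, log axis, n = 3 libraries) in 9 lineage lists, with the list median as a black bar, 1 FPKM dashed and the median of all genes dotted. The simple epithelial and mesenchymal lists are the ones whose medians (5.64 and 6.90 FPKM) lie above the median of all genes, and the squamous median is 0.428 FPKM.

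The keratins of simple epithelium were among the highest transcripts of the line. All 29 genes of simple and general epithelium were in the table, 23 reached 1 FPKM in every library, and the median was 5.64 FPKM. KRT19 (chr17:41523617-41528308, minus strand) stood at 647, 664 and 697 FPKM in libraries 1 to 3, KRT8 at 523, 520.4 and 489, KRT18 at 511, 513 and 464 and KRT7 at 301, 313 and 329.7. KRT8 and KRT18 encode the obligate partners of one filament, and their ranges overlapped, with a ratio of 1.03 ± 0.0211. KRT19 was apart from both. The KRT8 level depends on the gene length used and would be 818 FPKM with the longest annotated transcript. Summed, the 4 simple keratins outweighed the 7 listed basal keratins 229 ± 18.5 times, with the lowest ratio, 215, in library 1 and the highest, 249.9, in library 3.

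Cell junction genes of the epithelium were partly present. DSP, which encodes the desmosomal plaque protein desmoplakin, stood at 107 ± 5.36 FPKM, and the epithelial surface gene EPCAM at 33.9 ± 3.38. The claudin gene CLDN4 stood at 31.1 ± 2.13 FPKM. Of the cadherins, CDH3 (P-cadherin, 48.1 ± 2.93 FPKM) was 4.65 ± 0.377 times CDH1 (E-cadherin, 10.3 ± 0.528 FPKM), and the ranges did not overlap. The tight junction gene OCLN was at 0.0875 FPKM and the epithelial splicing regulator ESRP1 at 0.705, while ESRP2 was at 5.64. RAB25, a trafficking gene of epithelia, had no count, which allows up to 0.0731 FPKM.

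Mesenchymal state genes stood beside the keratins. Of 20 genes, 18 were in the table, 13 reached 1 FPKM in every library, and the median was 6.90 FPKM. VIM was 3.01 ± 0.151 times KRT19. The adhesion receptor gene CD44 stood at 137, 135 and 132 FPKM, SPARC at 81.3 ± 0.966, S100A4 at 65.0 ± 1.30, fibronectin (FN1) at 39.0 ± 1.74 and the collagen cross-linking enzyme LOX at 31.7 ± 2.02. Among transcription factors of the epithelial to mesenchymal transition, SNAI1 had 13.4 ± 2.71 FPKM, ZEB1 7.73 ± 0.0902 and SNAI2 5.96 ± 0.853. ZEB2 was near the floor at 0.0423 ± 0.0202 FPKM. N-cadherin (CDH2) had 0, 0 and 3 counts, so the cadherin usually paired with vimentin was at the floor in every library. The contractile genes ACTA2 (6.06 ± 1.44 FPKM), TAGLN (4.84 ± 0.859) and TPM2 (4.03 ± 0.959) were moderate. TWIST1 and TWIST2 were not listed in the table.

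**Figure D2:**
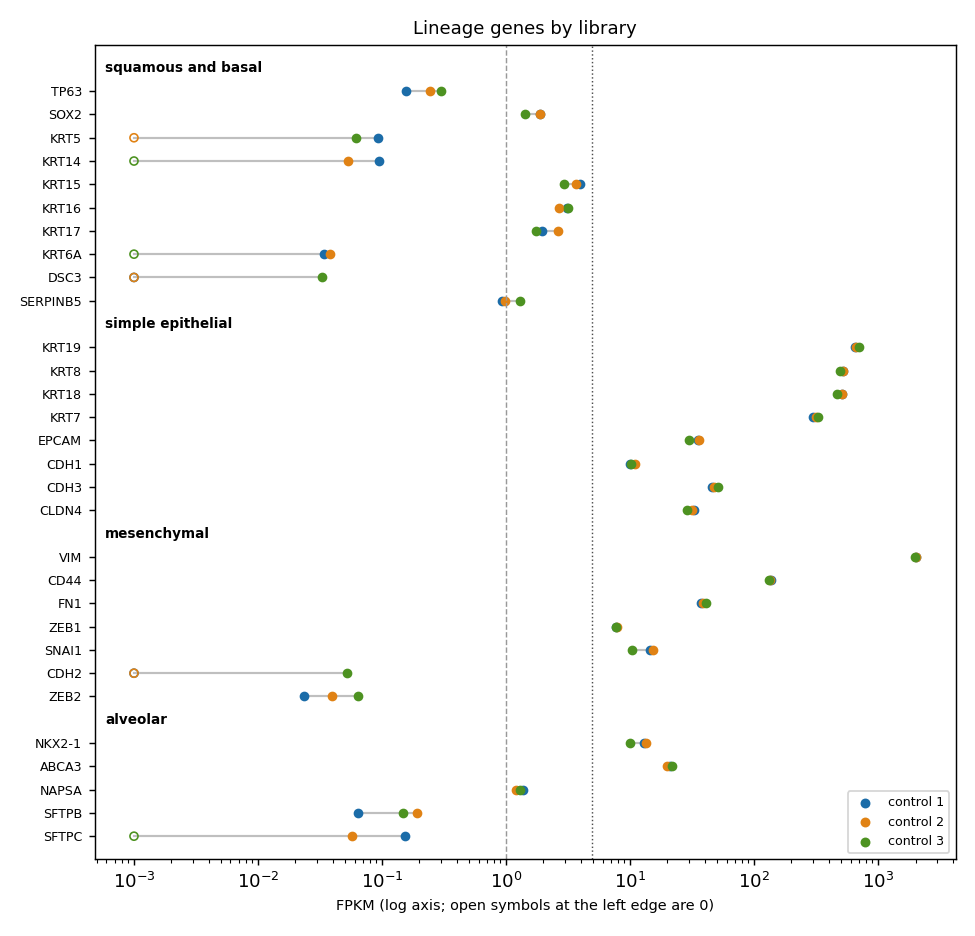
FPKM of defining lineage genes in control libraries 1, 2 and 3 (one point each, log axis; open symbols at the left edge are 0). The 3 libraries of KRT19, KRT8, KRT18, KRT7 and VIM lie between 301 FPKM (KRT7) and 2033 FPKM (VIM), and those of KRT5, KRT14, KRT6A and TP63 lie between 0 and 0.296 FPKM (TP63).

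Some genes of the distal lung and of lung adenocarcinoma were expressed, but surfactant genes were low. Of 17 such genes, 12 were in the table and 5 reached 1 FPKM. NKX2-1, the lung lineage factor, stood at 12.8, 13.4 and 9.99 FPKM in libraries 1 to 3, lowest in library 3. ABCA3, which encodes a lipid transporter of lamellar bodies, stood at 21.1, 19.9 and 21.6 FPKM. FOXA2 stood at 6.11 ± 1.06 FPKM. NAPSA, which encodes napsin A, was at 1.29 ± 0.0882 FPKM, and with the longest annotated transcript it would be 0.607. CAV1, a caveola gene that type I alveolar cells share with many cell types, was highest at 292 ± 6.62 FPKM. The surfactant genes SFTPB, SFTPC and SFTPD lay at 0.135, 0.0700 and 0.0688 FPKM, and SFTPA1 and SFTPA2 were not listed in the table. The ranges of NKX2-1 and TP63 did not overlap, with NKX2-1 higher.

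Airway genes were led by mucins of the cell surface. Of 21 markers, 16 were in the table and 7 reached 1 FPKM in every library (8 in the mean). MUC1 stood at 137, 132 and 101 FPKM and MUC16, which encodes the antigen CA125, at 12.9, 13.5 and 11.7. The club cell genes SCGB1A1 and SCGB3A1 had 1 count and no count. The goblet cell factor SPDEF was at 0.735 FPKM and the ciliated cell factor FOXJ1 at 1.44 ± 0.155. Of 14 neuroendocrine markers, 8 were in the table; CHGB and CALCA had no count. YAP1, a list member that neuroendocrine tumours typically lack, stood at 49.3 ± 2.96 FPKM and the neuronal enolase gene ENO2 at 8.85 ± 0.873.

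Markers of cells that a pure line should lack were low, with a few exceptions. Of 16 leukocyte markers, 11 were in the table and 3 reached 1 FPKM. The pan-leukocyte gene PTPRC had 2, 4 and 0 counts, and CD3D and NKG7 had none. The summed level of the leukocyte list was 90.4 to 107 FPKM over the libraries, most of it from CD68 (84.9 ± 9.14 FPKM), a lysosomal gene. GENCODE 29 places 85.8% of the exon bases of CD68 inside another gene, and whether counting used the strand is not given. The part of shared reads in its level was not tested. CD14 stood at 12.2, 12.4 and 12.1 FPKM and CSF1R at 2.02 ± 0.281. Of 18 endothelial and fibroblast markers, 14 were in the table, 4 reached 1 FPKM and the list summed to 19.4 to 21.2 FPKM. PDGFRA had no count, COL3A1 had 10 counts and THY1 stood at 0.0196 FPKM, while COL1A1 stood at 8.94 ± 0.460 and CDH5 at 1.43 ± 0.0701.

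Among receptor tyrosine kinases, which bind growth factors outside the cell and phosphorylate targets inside, MET was highest. MET, the receptor of hepatocyte growth factor (chr7:116672390-116798386, plus strand), stood at 90.3, 96.1 and 117 FPKM in libraries 1 to 3, highest in library 3. Its ligand HGF had 0, 2 and 0 counts. EGFR stood at 39.4, 39.2 and 44.0 FPKM, and MET was 2.47 ± 0.189 times EGFR. ERBB2 followed at 18.7 ± 1.16 FPKM, below EGFR in all libraries, ERBB3 at 1.30 ± 0.0594, and ERBB4 was not listed in the table. Ligands of the EGFR family were expressed by the line itself. Epiregulin (EREG) stood at 14.4 ± 1.58 FPKM, neuregulin 1 (NRG1) at 8.14 ± 0.221 (12.6 with the longest transcript), TGFA at 7.28 ± 0.146, HBEGF at 6.95 ± 0.287 and amphiregulin (AREG) at 5.21 ± 0.489, while EGF itself was at 0.313. TGFA and HBEGF overlapped in range.

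Of 32 genes in the list of other receptor kinases, 18 reached 1 FPKM in every library. The list also holds IGF2R (27.3 ± 1.41 FPKM), which clears insulin-like growth factor and has no kinase domain. After MET came the ephrin receptor EPHB4 (60.2 ± 1.18 FPKM), AXL (27.6 ± 2.87), RYK (25.2 ± 0.675) and the MET relative MST1R (24.0 ± 0.776). EPHB4 was apart from AXL and RYK from MST1R, while AXL and RYK overlapped in range. With the longest transcript RYK would stand at 14.1 FPKM, below MST1R. Ligands of the receptor family of AXL, MERTK (4.55 FPKM) and TYRO3 (2.61 FPKM) were present, PROS1 at 52.8, 50.7 and 51.2 FPKM and GAS6 at 13.3, 12.95 and 12.7. Which of these receptors each ligand acts on was not tested. KITLG, the ligand of KIT, stood at 35.3 ± 3.35 FPKM and KIT at 0.233 ± 0.0273. Of 19 such ligands in the table, 12 reached 1 FPKM in every library, among them VEGFB (19.7 ± 3.78 FPKM), VEGFA (18.4 ± 1.501, or 5.69 with the longest transcript) and the ephrins EFNA1 (18.3 ± 2.28) and EFNB2 (18.0 ± 1.85), which signal to EPHA2 (20.3 ± 1.27) and EPHB4. NTRK3, FLT1 and PDGFRA had no count, which allows up to 0.00406, 0.0114 and 0.0123 FPKM.

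Protease-activated receptors are cut by proteases outside the cell and then signal through G proteins, and F2R (PAR1) is a known substrate of the collagenase MMP1, the exosome cargo named in the series title. F2R (chr5:76716043-76735781, plus strand) stood at 78.0, 84.7 and 92.5 FPKM in libraries 1 to 3. F2RL1 (PAR2), its neighbour on chromosome 5 (chr5:76818933-76835315, plus strand), stood at 99.6, 108 and 129 FPKM and was 1.32 ± 0.0704 times F2R. F2RL2 (PAR3) was at 4.65 ± 0.491 FPKM and F2RL3 (PAR4) at 0.204 ± 0.0615. MMP1 itself was transcribed by the untreated line at 15.2, 13.6 and 14.02 FPKM. F2R was 5.98 ± 0.771 times MMP1 in level, and the ranges did not overlap.

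Of 18 genes of this receptor and coagulation group, 12 reached 1 FPKM in every library. The plasminogen activator urokinase (PLAU) stood at 52.2 ± 3.92 FPKM and its receptor PLAUR at 14.4 ± 0.799. Tissue factor (F3), which starts coagulation, stood at 24.8 ± 2.12 FPKM, and its inhibitor TFPI at 44.4 ± 1.06, or 24.1 with the longest transcript. The protein C receptor gene PROCR stood at 32.3 ± 0.818 FPKM. Thrombin (F2) and factor X (F10) were at 0.0510 and 0.162 FPKM.

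TGF-beta signals through a pair of receptors, of which TGFBR2 binds the ligand and TGFBR1 carries the signal. TGFBR2 stood at 52.9, 53.3 and 56.6 FPKM and TGFBR1 at 23.1, 23.5 and 30.6, with library 3 highest for both. The ligand genes TGFB2 (31.6 ± 0.559 FPKM) and TGFB1 (21.7 ± 2.40) were apart, with a ratio of 1.46 ± 0.170. The co-receptor gene ENG stood at 39.9 ± 2.07 FPKM and the BMP receptor gene BMPR2 at 19.0 ± 1.47. In this list 23 of 27 genes reached 1 FPKM in every library, while FST, BMP7 and GREM1 were below 0.1.

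Cytokine receptors of the interleukin 6 family were high. OSMR, which binds oncostatin M, stood at 97.8, 99.9 and 104 FPKM, and the shared chain IL6ST (gp130) at 44.7, 44.5 and 48.6. LIFR stood at 25.5, 26.2 and 32.0 FPKM and its ligand LIF at 8.55 ± 0.999, whereas IL6R stood at 4.61 ± 0.218 and IL6 at 0.662 ± 0.236. OSMR was 3.63 ± 0.322 times LIFR. The interleukin 13 receptor chain IL13RA1 (71.8 ± 2.69 FPKM) and the receptors of the tumour necrosis factor family TNFRSF1A (57.3 ± 1.39), TNFRSF21 (41.9 ± 1.53) and TNFRSF12A (28.3 ± 5.05) completed the 6 highest of 33 genes. TLR4 had 0, 5 and 8 counts.

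In the Notch and Wnt pathways the highest gene encoded a secreted inhibitor. DKK1, which blocks Wnt co-receptors, stood at 77.8, 75.7 and 81.6 FPKM. The Wnt receptor genes FZD2 (37.2 ± 1.88 FPKM), LRP5 (36.9 ± 0.959) and LGR4 (33.3 ± 2.76) overlapped in range with one another and lay below JAG1 and above NOTCH2, and WNT7B at 13.9 ± 0.325 FPKM was the highest Wnt ligand of the list. JAG1 was 1.84 ± 0.185 times NOTCH2 (23.5 ± 2.79 FPKM), which was 2.02 ± 0.295 times NOTCH1 (11.7 ± 0.488 FPKM). Of 32 listed genes, 26 were in the table and 14 reached 1 FPKM in every library.

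**Figure D3:**
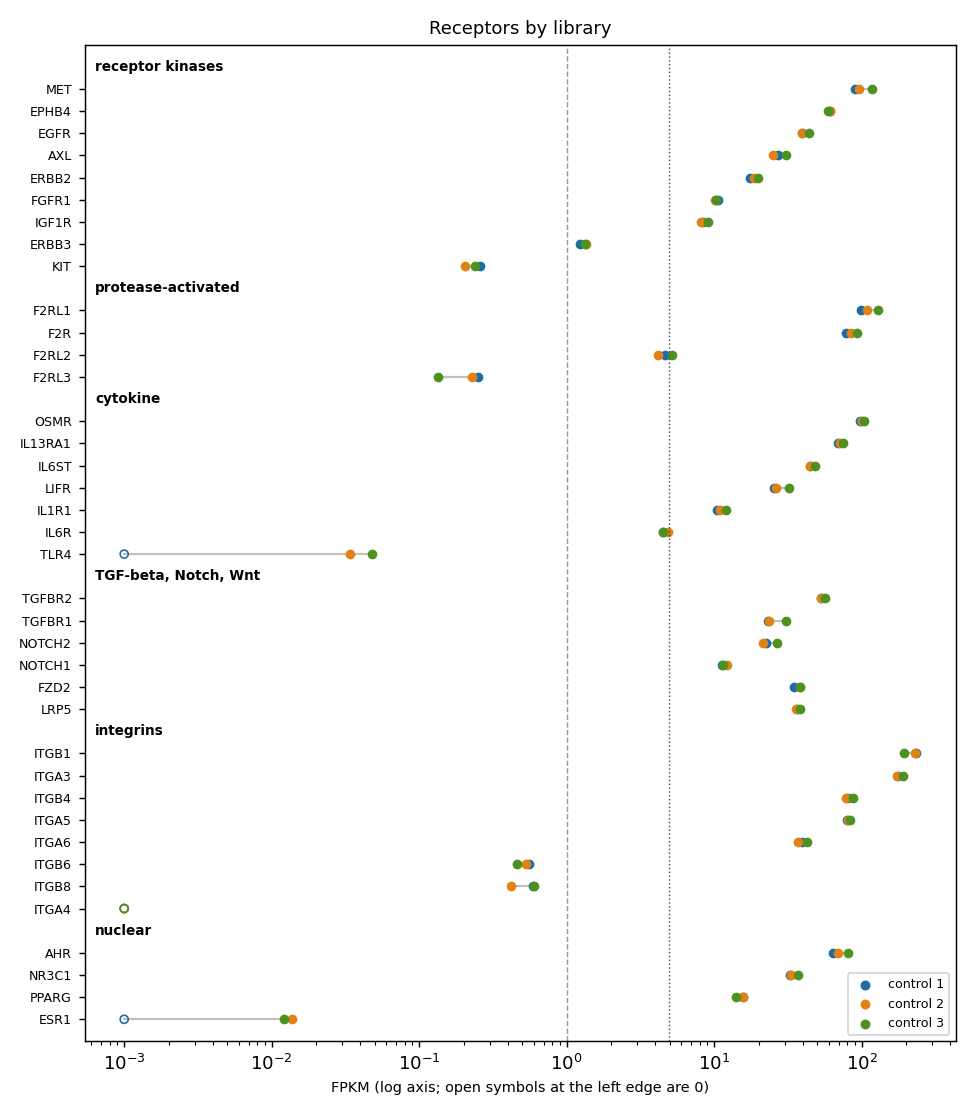
FPKM of receptors in control libraries 1, 2 and 3 (one point each, log axis; open symbols at the left edge are 0), with 1 FPKM dashed and the median of all genes dotted. MET, F2RL1, F2R, OSMR, ITGB1 and ITGA3 lie between 78.0 FPKM (F2R) and 233 FPKM (ITGB1), and ITGA4 has no count in any.

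Integrins, the heterodimeric receptors of the matrix, were uneven: some subunits were high, but the list median was 0.892 FPKM, below the median gene. All 25 subunits were in the table and 11 reached 1 FPKM in every library. The common beta chain ITGB1 stood at 233, 229 and 195 FPKM, lowest in library 3, and ITGA3, its partner for laminin, at 175, 174 and 192. ITGB4 (82.0 ± 4.31 FPKM) and ITGA6 (39.6 ± 2.80) form the laminin receptor of hemidesmosomes, and ITGB4 was 2.07 ± 0.0441 times ITGA6. The fibronectin chain ITGA5 (81.2 ± 1.92 FPKM) overlapped in range with ITGB4. ITGAV stood at 43.9 ± 2.92 FPKM; among its partner chains ITGB5 stood at 16.97 ± 2.51 and ITGB3 at 11.8 ± 1.55, against 0.514 ± 0.0469 for ITGB6 and 0.538 ± 0.102 for ITGB8. The leukocyte chains ITGA4 and ITGAL had no count, which allows up to 0.0194 and 0.0156 FPKM.

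Genes of vesicle uptake and endocytosis were a high group, with a median of 68.2 FPKM over 23 members in the table, 21 of them at 1 FPKM or more in every library. BSG (basigin, also known as an inducer of matrix metalloproteinases) stood at 293, 302 and 290.3 FPKM and CAV1 at 285, 293 and 298, and they overlapped in range. The proteoglycan SDC4 stood at 176, 176 and 219.7 FPKM, with library 3 highest. The clathrin heavy chain CLTC (184 ± 16.2 FPKM), the caveolar coat gene CAVIN1 (156 ± 13.9) and the tetraspanin CD81 (147 ± 4.15, or 59.9 with the longest transcript) followed. The scavenger receptors CD36 and STAB1 were at 0.220 and 0.00325 FPKM. Among nuclear receptors and the related xenobiotic sensor AHR, 19 of 24 reached 1 FPKM in every library. AHR led at 64.3, 68.6 and 80.9 FPKM, followed by the glucocorticoid receptor NR3C1 (34.3 ± 2.12 FPKM), RXRA (34.0 ± 1.11, or 10.9 with the longest transcript) and RARG (32.95 ± 2.69). The oestrogen receptor ESR1 had 4 counts.

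Surface genes that shield cells from complement and phagocytes were well expressed, in a list of antigen presentation and checkpoint genes of which 11 of 22 in the table reached 1 FPKM in every library. CD59 stood at 68.5 ± 7.95 FPKM, CD46 at 65.5 ± 2.84 (28.2 with the longest transcript) and CD47 at 39.0 ± 3.63. B2M, the light chain of class I molecules, stood at 70.7, 70.0 and 48.9 FPKM, lowest in library 3. The heavy chains HLA-B and HLA-C read 0.545 and 0.506 FPKM, and reads of such closely related genes could be split. PVR stood at 44.4 ± 0.843 FPKM, CD276 at 21.3 ± 0.532 and CD274, which encodes PD-L1, at 4.32 ± 0.382. Secreted immune factors were mostly low: 7 of 25 in the table reached 1 FPKM in every library. Interleukin 18 (IL18) stood at 31.6, 38.3 and 35.8 FPKM and CSF1 at 19.7, 18.2 and 17.9, CCL28 at 8.65 ± 0.374 and CXCL8 at 1.13 ± 0.339, while CXCL5 and CSF2 had no count.

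Collagens of the line were unevenly expressed, with some chains high and their usual partners near zero. Of 31 collagen genes, 29 were in the table, 11 reached 1 FPKM in every library (12 in the mean), and the median was 0.354 FPKM. COL5A1, which regulates fibril width, stood at 53.7, 51.8 and 49.3 FPKM in libraries 1 to 3 and its partner chain COL5A2 at 0.477, 0.672 and 0.459, a ratio of 99.0 ± 19.1. Both chains of type I collagen were moderate, with COL1A1 at 8.94 ± 0.460 FPKM, 1.19 ± 0.111 times COL1A2. COL12A1 stood at 31.3 ± 2.96 FPKM, and COL6A1 (25.8 ± 0.418) was 3.11 ± 0.176 times COL6A2. The main collagen chains of basement membranes, COL4A1 (chr13:110148963-110307233, minus strand) and COL4A2, which share a bidirectional promoter, had 0, 0 and 2 and 0, 1 and 1 counts. The other 4 chains of type IV collagen lay between 0.0415 (COL4A3) and 0.131 FPKM (COL4A6).

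Laminins are the other scaffold of basement membranes. Of 16 genes of laminins and basement membranes, 9 reached 1 FPKM in every library, with a median of 5.85 FPKM, and the members were uneven. LAMC1 stood at 70.4, 67.8 and 73.3 FPKM and LAMB2 at 65.0, 67.5 and 72.5, with overlapping ranges, and LAMA5 at 38.6, 37.6 and 35.9; together these chains form a laminin of mature basement membranes. LAMB2 was 14.2 ± 0.710 times LAMB1. The chains LAMA1, LAMA2, LAMA4, LAMB4 and LAMC3 were all below 1 FPKM. Of the laminin that anchors epithelia, the chain LAMB3 stood at 49.6 ± 3.48 FPKM and LAMA3 at 18.1 ± 0.707. Agrin (AGRN) stood at 53.6 ± 2.67 FPKM and perlecan (HSPG2) at 22.5 ± 0.865, while nidogens NID1 and NID2 were at 0.0266 and 0.0961.

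The promoter windows of KRT5 and COL4A1, a pair of near-silent genes, and of the highly expressed glutathione transferase gene GSTP1 are shown to compare their content of the dinucleotide CG. Each window is the 250 bases before the gene start from RefSeq (GRCh38.p14), written 5′ to 3′ on the strand of the gene, and capitals mark each CG. GENCODE 29 has models of these genes that begin farther upstream, within or before the windows. KRT5 (chr12:52520395-52520644, minus strand) held 6, COL4A1 (chr13:110307158-110307407, minus strand) 38 and GSTP1 (chr11:67583562-67583811, plus strand) 28.
KRT5: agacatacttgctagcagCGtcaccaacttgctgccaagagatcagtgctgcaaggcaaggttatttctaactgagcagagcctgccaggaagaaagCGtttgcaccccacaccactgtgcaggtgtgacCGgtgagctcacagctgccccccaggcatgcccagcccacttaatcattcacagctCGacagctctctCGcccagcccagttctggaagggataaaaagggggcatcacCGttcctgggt
COL4A1: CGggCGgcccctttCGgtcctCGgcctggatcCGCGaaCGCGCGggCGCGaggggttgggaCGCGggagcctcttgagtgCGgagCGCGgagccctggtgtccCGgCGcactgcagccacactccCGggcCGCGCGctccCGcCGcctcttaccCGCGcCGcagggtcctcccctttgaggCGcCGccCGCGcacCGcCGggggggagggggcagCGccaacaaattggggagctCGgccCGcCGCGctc
GSTP1: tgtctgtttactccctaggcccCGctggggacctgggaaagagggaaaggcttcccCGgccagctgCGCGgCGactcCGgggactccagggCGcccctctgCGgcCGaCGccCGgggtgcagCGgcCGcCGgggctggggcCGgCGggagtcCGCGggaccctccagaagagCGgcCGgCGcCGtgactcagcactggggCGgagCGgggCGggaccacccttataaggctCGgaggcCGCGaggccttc
KRT5 and COL4A1, both near zero in these cells, thus lay far apart in this count.

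Across 8698 genes with a single matched window (55.2% of the table), the CG count was higher at higher levels. Its median was 8 in 1295 genes below 0.1 FPKM, 13.5 from 0.1 to 1 FPKM, 21 from 1 to 10 FPKM, and 23 both from 10 to 100 FPKM and in 204 genes above. Windows with at least 30 CG, as in COL4A1, were 9.11% of genes below 0.1 FPKM (118 genes) and 25.1% of those at 10 FPKM or more. The letters TATAAA between 40 and 20 bases before the start, searched on the strand of the gene, were in 6.95% of windows below 0.1 FPKM, 1.37% from 1 to 10 FPKM and 5.88% at 100 FPKM or more, against 2.72% of all. These are descriptions of windows and levels, which share base composition.

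Matrix glycoproteins were led by TGFBI, a collagen-binding protein induced by TGF-beta, at 616, 629 and 662 FPKM, or 392 in the mean with the longest transcript. The proteoglycans versican (VCAN, 103 ± 6.81 FPKM) and syndecan 1 (SDC1, 86.1 ± 3.58) followed SDC4, and then SPARC and thrombospondin 1 (THBS1, 66.2 ± 5.36). Tenascin C (TNC, 51.7 ± 2.30) and FN1 lay beside them. In all, 26 of 33 genes in the table reached 1 FPKM in every library. DCN, LUM, POSTN and FBN2, matrix genes typical of fibroblasts, were not listed in the table, and FBN1 was at 0.208 FPKM.

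Enzymes that fold and cross-link collagen were high as a group, with 14 of 17 at 1 FPKM or more in every library and a median of 32.8 FPKM. The prolyl hydroxylase chain P4HB stood at 210.4, 207 and 226 FPKM, LOXL2 at 128, 122 and 133 and the lysyl hydroxylase PLOD2 at 101, 102 and 112. The collagen chaperone SERPINH1 (97.4 ± 5.26 FPKM) and COLGALT1 (93.3 ± 8.08) were close behind. Of 32 proteases, inhibitors and related genes in the table, 18 reached 1 FPKM in every library. TIMP2 and TIMP1, which inhibit metalloproteinases, were higher than any metalloproteinase of the list. TIMP2 stood at 107, 112 and 129 FPKM and TIMP1 at 93.2, 96.3 and 86.7, and TIMP2 was 8.11 ± 1.64 times MMP14. The metalloproteinases MMP24 (26.0 ± 3.31 FPKM), MMP13 (23.9 ± 2.69), MMP15 (18.9 ± 1.43), MMP14 (14.5 ± 1.45) and MMP1 (14.3 ± 0.853) all exceeded 10 FPKM, and MMP14 and MMP1 overlapped in range. The gelatinases MMP2 and MMP9 lay at 0.207 ± 0.184 and 0.572 ± 0.233 FPKM, and MMP10 had no count, which allows up to 0.0461 FPKM. TIMP3 had 4 counts. The lysosomal protease CTSD stood at 226 ± 35.3 FPKM, and the sheddases ADAM15 at 58.4 ± 4.38 and ADAM9 at 48.0 ± 1.32. ADAM9 would stand at 74.2 FPKM with the longest transcript, above ADAM15.

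**Figure D4:**
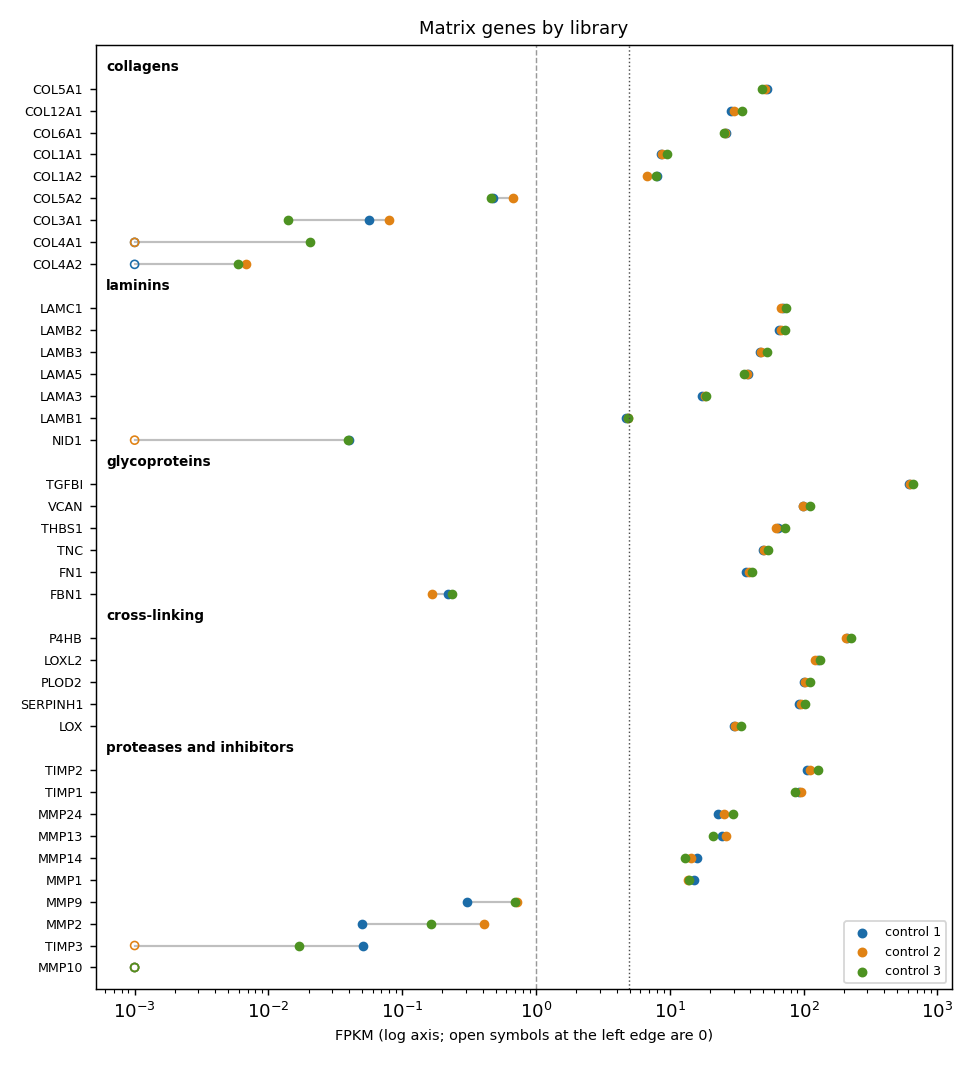
FPKM of matrix genes in control libraries 1, 2 and 3 (one point each, log axis; open symbols at the left edge are 0), with 1 FPKM dashed and the median of all genes dotted. COL5A1 and LAMC1 lie between 49.3 and 73.3 FPKM, whereas COL4A1 and COL4A2 lie between 0 and 0.0206 FPKM.

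Of the glycolysis genes, GAPDH, ENO1, LDHA and PKM were among the highest nuclear metabolic genes of the lists, whereas the median of the pathway was below that of the TCA cycle. Of 32 listed genes, 30 were in the table, 24 reached 1 FPKM in every library and the median was 21.3 FPKM. GAPDH stood at 1269.9, 1245 and 1161 FPKM, ENO1 at 1009, 981 and 1084, LDHA at 797, 756 and 821 and PKM at 573, 577 and 640.1. LDHA, the lactate dehydrogenase chain that favours lactate formation, was 24.3 ± 1.62 times LDHB (32.6 ± 1.31 FPKM). The glucose transporters SLC2A1 (30.3 ± 1.07 FPKM) and SLC2A3 (24.1 ± 1.59) and the hexokinases HK1 (47.7 ± 1.85) and HK2 (24.4 ± 3.90) were far lower than these 4. ALDOA, the main aldolase of most cells, read only 0.686, 0.476 and 0.675 FPKM, below ALDOC (18.4 ± 2.22); 53.5% of its exon bases lie within another annotated gene, AC093512.2. The part of shared reads in this value was not tested.

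Respiratory genes were broadly expressed. All 33 genes of pyruvate entry and the TCA cycle reached 1 FPKM in every library, with a median of 31.2 FPKM. Malate dehydrogenase MDH2 stood at 126, 119 and 97.7 FPKM, the succinate dehydrogenase chain SDHA at 111, 105 and 107, citrate synthase (CS) at 96.5, 90.5 and 92.8 and fumarase (FH) at 86.4, 86.1 and 78.9. MDH2 and SDHA overlapped in range. The kinases that block pyruvate entry were below the median of the list, with PDK3 at 13.1 ± 1.17 FPKM (6.97 with the longest transcript), PDK2 at 4.55 ± 1.32, PDK1 at 4.41 ± 0.379 and PDK4 at 4.07 ± 0.172. Of the mitochondrial genes, MT-CO1 stood at 17328, 16006 and 12564 FPKM in libraries 1 to 3, MT-CO2 at 15121, 14631 and 9665 and MT-ND4 at 13278, 12441 and 8712. All 3 were lowest in library 3. MT-ATP8, which overlaps MT-ATP6 on the same RNA, read 8.75 ± 1.03 FPKM against 5980.4 ± 571 for MT-ATP6.

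The pentose phosphate pathway, a source of NADPH, had 10 of 11 genes at 1 FPKM or more in every library. TKT stood at 186 ± 6.17 FPKM (77.3 with the longest transcript), PGLS at 112 ± 20.0 (72.1 with the longest transcript) and TALDO1 at 64.3 ± 0.771. Redox genes, many of them targets of the factor NRF2, reached 1 FPKM in every library in 25 of 30 cases and were led by FTL and by GSTP1, at 571, 598 and 553 FPKM, or 328 in the mean with the longest transcript. The lipid peroxidase GPX4 stood at 404, 429 and 363 FPKM, thioredoxin (TXN) at 254, 255 and 218 and thioredoxin reductase TXNRD1 at 133, 134 and 138. NQO1, a classic NRF2 target, stood at 91.0 ± 2.52 FPKM, NFE2L2, which encodes NRF2, at 33.6 ± 0.954, and its inhibitor KEAP1 at 41.1 ± 2.95. NFE2L2 would stand at 53.4 FPKM with the longest transcript, above KEAP1. Other NRF2 targets were lower: the cystine carrier SLC7A11 stood at 8.35 ± 1.04 FPKM, AKR1C1 at 1.08 ± 0.262, SRXN1 at 0.364 ± 0.0805 and ALDH3A1 at 0.135 ± 0.0875. FTH1, the ferritin heavy chain, had 448, 419 and 182 FPKM, the second largest ratio of highest to lowest library among genes of at least 50 CPM, and 62.4% of its exon bases overlap another gene.

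Lipid synthesis was led by a desaturase, and 24 of 29 fatty acid genes reached 1 FPKM in every library. SCD, which makes monounsaturated fatty acids, stood at 304, 297 and 348 FPKM and was 6.49 ± 0.176 times fatty acid synthase (FASN, 48.8 ± 4.80 FPKM). The lipid droplet gene PLIN3 (147 ± 10.1 FPKM), the beta oxidation genes HADHA (126 ± 1.91) and HADHB (94.4 ± 6.22), and ACSL4 (111 ± 12.1), which activates polyunsaturated fatty acids, followed. Of 24 cholesterol genes, 22 reached 1 FPKM in every library. FDPS, which makes farnesyl diphosphate, stood at 55.4 ± 3.60 FPKM.

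Amino acid genes were high, with 29 of 34 at 1 FPKM or more in every library and a median of 30.7 FPKM. The transporter SLC38A2 stood at 207, 207 and 236 FPKM and argininosuccinate synthase (ASS1) at 140.3, 138 and 111. Glutamine synthetase (GLUL) stood at 7.19 ± 0.548 FPKM, and the liver-type glutaminase GLS2 had 7 counts, with 82.8% of its exon bases inside another gene. GLUD1 stood at 124 ± 2.91 FPKM, GOT2 at 108 ± 4.63 and ODC1, the first enzyme of polyamine synthesis, at 83.8 ± 1.98. Of the serine hydroxymethyltransferases, mitochondrial SHMT2 stood at 56.2 ± 2.94 FPKM and cytosolic SHMT1 had 2, 0 and 0 counts.

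Metallothioneins, small proteins that bind zinc and copper, differed within their cluster on chromosome 16. Together with iron genes, 11 of 13 in the table reached 1 FPKM in every library. MT2A stood at 194, 222 and 191 FPKM, MT1E at 64.5, 67.7 and 66.7 and MT1X at 27.6, 31.8 and 21.3, or 12.8 in the mean with the longest transcript. MT1F stood at 3.88 ± 1.05 FPKM (1.81 with the longest transcript), MT1M at 1.27 ± 0.216, MT1G had no count, which allows up to 0.129 FPKM, and MT1H and MT3 were not listed in the table. These genes are near-identical copies, so reads could be split between them. The windows of MT2A (chr16:56608334-56608583, plus strand) and MT1X (chr16:56682220-56682469, plus strand) are shown for their metal response cores, TGCACNC or TGCGCNC on either strand, in capitals. The second form itself holds a CG. GENCODE 29 models of MT2A and MT1X also begin before or within these windows.
MT2A: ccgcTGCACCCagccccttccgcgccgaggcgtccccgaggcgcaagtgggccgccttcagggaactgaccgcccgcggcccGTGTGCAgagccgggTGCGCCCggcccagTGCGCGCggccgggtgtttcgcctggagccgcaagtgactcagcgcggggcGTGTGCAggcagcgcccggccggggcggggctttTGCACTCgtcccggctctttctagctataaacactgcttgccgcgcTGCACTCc
MT1X: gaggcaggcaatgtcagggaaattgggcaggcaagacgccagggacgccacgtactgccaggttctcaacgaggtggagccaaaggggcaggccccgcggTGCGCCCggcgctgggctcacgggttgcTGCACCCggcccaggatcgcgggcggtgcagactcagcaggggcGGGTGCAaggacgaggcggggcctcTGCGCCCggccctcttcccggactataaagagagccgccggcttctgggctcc
MT2A held 7 matches and MT1X 4, while 32.6% of all 8698 windows held at least 1, from 24.2% below 0.1 FPKM to 43.1% at 100 FPKM or more. Among iron genes, the transferrin receptor TFRC stood at 92.1 ± 6.79 FPKM and the iron exporter SLC40A1 at 0.0464 ± 0.0215.

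**Figure D5:**
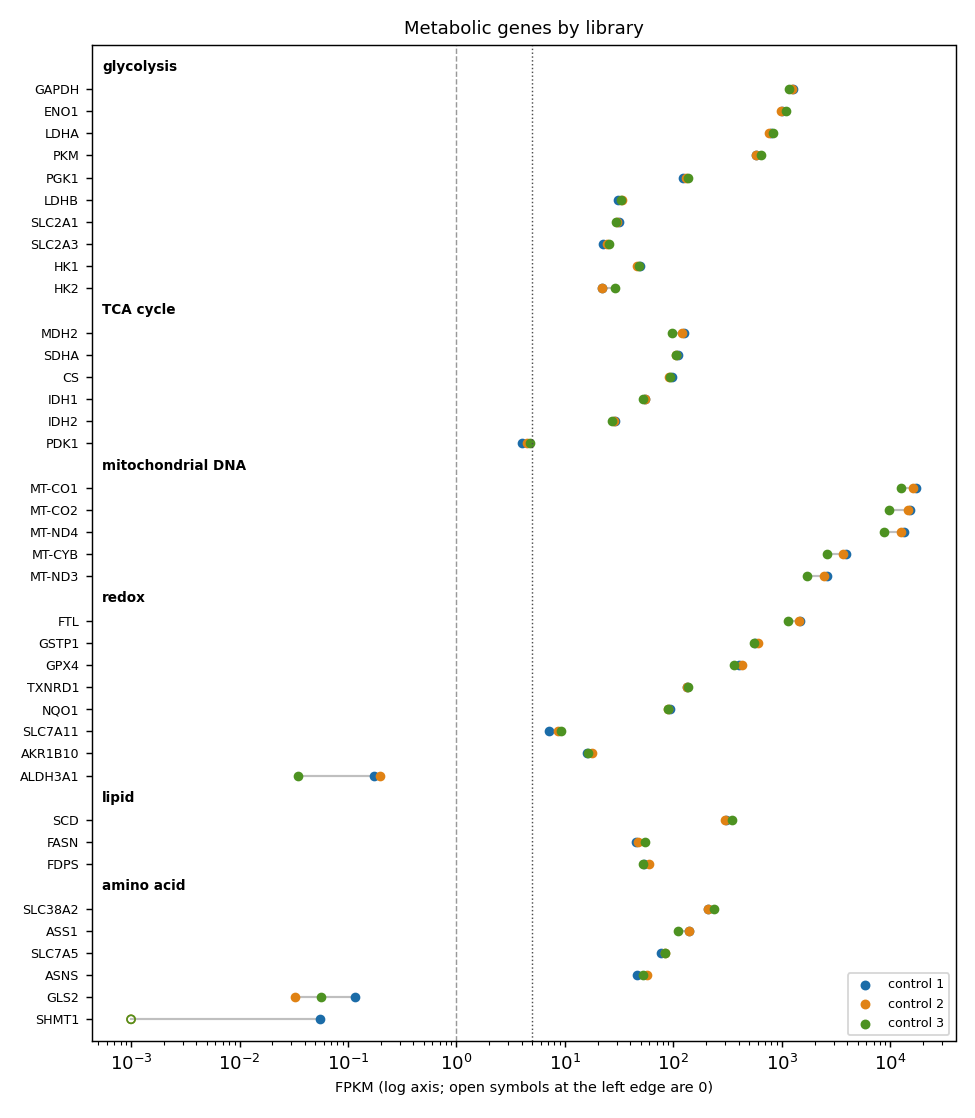
FPKM of metabolic genes in control libraries 1, 2 and 3 (one point each, log axis; open symbols at the left edge are 0), with 1 FPKM dashed and the median of all genes dotted. GAPDH, ENO1, LDHA, PKM and the mitochondrial genes drawn lie between 573 FPKM (PKM) and 17328 FPKM (MT-CO1), and library 3 is the lowest of the 3 for every mitochondrial gene drawn.

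Genes of proliferation were well expressed, and 25 of 30 cell cycle and tumour suppressor genes reached 1 FPKM in every library. TOP2A, which untangles DNA in mitosis, stood at 112, 121 and 129 FPKM, PCNA at 109, 104 and 85.6 and MKI67 at 50.2, 48.2 and 41.9. Cyclin D1 (CCND1) stood at 71.9 ± 8.81 FPKM and MYC at 69.3 ± 8.29, while CCND2 had 1 count. The cell cycle inhibitor CDKN1A stood at 10.9 ± 1.204 FPKM. At the 9p21 locus, CDKN2A stood at 4.75 ± 0.394 FPKM (11.7 with the longest transcript), CDKN2B at 4.21 ± 0.176 and MTAP at 2.32 ± 0.169 (3.97 with the longest transcript). Of 17 genes of the 3q arm and related oncogenes in the table, 16 reached 1 FPKM in every library; EIF4G1 (106 ± 3.42 FPKM) and PSMD2 (102 ± 12.6) led, and PIK3CA stood at 9.23 ± 0.571.

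Some low values cannot be read as absence of the transcript, because whole stretches of neighbouring genes read low together. On chromosome 8, all 19 genes from TNKS to TRMT9B were below 1 FPKM, including the squalene synthase gene FDFT1 (0.176 FPKM), while FDPS, the enzyme before it in the pathway, stood at 55.4, and the cathepsin gene CTSB (0.752). On chromosome 17, all 6 genes from GGNBP2 to SYNRG were below 1 FPKM, including ACACA (0.224), which makes the substrate of FASN. A run of 10 genes on chromosome 12, from KRT83 to KRT78, was also below 1 FPKM, and KRT5 lies in this keratin cluster. Genes largely inside other genes also read low more often: of 537 protein-coding genes with at least 50% of exon bases in another gene, 63.1% were below 1 FPKM, against 33.2% of 8178 without overlap and 25.0% of 6775 with a smaller overlap. The part of counting, of chromosome copy number and of transcription in these values was not tested.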

How the data were processed

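The 3 control libraries of SK-MES-1 were used. Per the labels' protocols, Trizol was used for RNA extraction and a NEBNext Ultra kit for the libraries. The submitters' processing notes name STAR as a tool and GRCh38 (hg38) as the build. The sources used here do not give the counting program, its annotation or its strand setting. The deposited table holds the authors' read counts per gene (whole numbers), the authors' FPKM values and a normalised signal, which is the deposited count over a size factor per library and entered no result. Levels are the FPKM of the authors as deposited; in each gene, count over FPKM gave the same length in the 3 libraries. That length equals the longest GENCODE 29 transcript for 31.1% of genes.

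The spread was estimated from counts with edgeR 4.0.16 in R 4.3.3 (TMM, intercept only, genes with at least 10 counts in every library), and the script was tested on simulated counts. Nothing was tested between groups. Depth puts 1 CPM at 11.3 to 12.9 reads, and limits from a count of 0 cover counting error only.

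The 38 gene lists held 921 entries, of which 830 (792 distinct genes) were in the table. Members and lists were chosen with earlier results of these data known. The text names the 6 highest members of each list, defining lineage markers, members at 0 or not listed, MMP1 and F2R, the 20 highest genes and the 10 most variable ones; partners of these and other members with low levels were named after their values were seen. Some genes that this rule takes in are not reported here. Positions in the table start 1 base below GENCODE 29 and are given counted from 1. Alternatives were TPM over the table, other thresholds, shares of counts, other size factors and count filters, absent members set to 0, the longest transcript length, values without mitochondrial genes and leaving out each library.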

Additional observations from a re-analysis of the deposited data

How the results depend on the processing

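The number of genes at 1 FPKM or more kept within 1.5 times its value under every alternative run, at 9623 with a threshold of 2 FPKM and 10699 to 10737 without 1 library. As shares of counts in place of FPKM, mitochondrial genes held 8.06%, ribosomal protein genes 2.46% and the 100 highest genes 19.4%. The coefficient of variation was 3.44% to 10.98% without 1 library, and 3.44% without library 3. The squamous median was 1.30 in TPM, 0.105 FPKM with absent members at 0 and 0.396 to 0.481 FPKM without 1 library. The simple epithelial median was 17.003 in TPM, 6.14 FPKM without mitochondrial genes and 5.40 to 5.81 FPKM without 1 library. TPM multiplied all 555 listed genes at 1 FPKM or more by 2.98 to 3.06, which is the construction of that scale and leaves ratios within a library as they were. The longest annotated transcript moved 40 of 552 levels by more than 1.5 times. Leaving out library 2 moved 1 of 555 levels that far, and leaving out library 1 or 3 moved none. Of the 38 list medians, 12 moved by more than 1.5 times with absent members at 0, and 1 did so without library 1. No paired analysis was possible because only the control group is described and no test was made. Depth limits genes under about 3 counts, and 3 libraries limit each SD.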

Other observations

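The families given here were chosen after their values were seen and form no list above. S100 genes, which encode calcium-binding proteins, ranged widely: S100A6 stood at 714, 713 and 480.0 FPKM in libraries 1 to 3, S100A11 at 366, 367 and 247 and S100A10 at 298, 286 and 209, all lowest in library 3. S100A9 stood at 10.7 ± 2.74 FPKM, S100A8 at 0.344 ± 0.176, and S100A7 had no count. The annexin genes ANXA1 (519.6 ± 43.1 FPKM), ANXA2 (377 ± 57.4) and ANXA5 (207 ± 6.53) were high, and ANXA10 was at 0.0804 ± 0.0959.

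Of 13 pregnancy-specific glycoprotein and alkaline phosphatase genes, most of them typical of the placenta, 6 reached 1 FPKM in every library and the median was 0.977 FPKM, against 67.5% of all genes and a median of 4.94 FPKM. The pregnancy-specific glycoprotein gene PSG4 stood at 14.8, 17.1 and 14.2 FPKM, PSG9 at 4.62, 4.23 and 4.71 and the placental alkaline phosphatase gene ALPP at 9.47, 6.85 and 7.92. PSG2, PSG6, PSG7, PSG8, ALPG and ALPL had means below 1 FPKM, and PSG11 had no count. PSG genes are near-identical copies, so their reads could be split or shared. Complement C3 stood at 186 ± 4.96 FPKM, the dioxin-responsive CYP1B1 at 66.4 ± 5.11 and the drug exporter ABCG2 at 24.7 ± 1.72. HIF1A stood at 296 ± 19.8 FPKM, TXNIP at 325 ± 11.8, BST2 at 130.4 ± 5.83 and IFITM3 at 286 ± 68.6, the last being lowest in library 3. Of the TEAD factors, which carry YAP1 to DNA, TEAD1 stood at 39.9 ± 2.41 FPKM, above TEAD2 (8.90 ± 2.09), TEAD3 (5.78 ± 0.517) and TEAD4 (7.51 ± 1.24). SOX9 (16.7 ± 0.598 FPKM) and SOX12 (17.4 ± 0.783) exceeded SOX2, and their ranges did not overlap with it.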
